A study of Mus musculus with 6 samples.

Results

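The 10 genes described here encode the secreted proteins of pulmonary surfactant and the machinery that makes and stores it in the alveolar type II cell. They are Sftpa1, Sftpb, Sftpc, Sftpd, Abca3, Napsa, Lamp3, Slc34a2, Lpcat1 and Muc1. They were chosen by symbol, with 1 transcript cluster (the set of array probes that stands for a gene) for each, out of 19938 genes with a single symbol on the array. Their levels were compared to ask how the surfactant program stood in lung epithelial cells with less Nkx2-1.

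Nkx2-1-shRNA lines (n = 3) were MLE15 cells transduced with a lentiviral mixture of shRNAs against Nkx2-1. Control lines (n = 3) were the same cells carrying, by their labels, the empty pLKO.1 vector. The study calls its control non-silencing, and both names were taken to mean the same group. Nkx2-1-shRNA and control lines were selected with puromycin, and the labels give 48 h for both groups, while the study describes stable lines. MLE15 is a mouse lung epithelial line from mice in which the human surfactant protein C promoter drives the SV40 large T antigen, so that every line in both groups also carries that oncogene. The 3 lines of a group were transduced independently but came from 1 parental line, and p-values measure the spread between these lines.

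Surfactant is a film of phospholipid and protein that lowers surface tension at the air-liquid surface of the alveolus. Type II cells assemble its lipids and hydrophobic proteins into lamellar bodies, lysosome-related organelles that fuse with the apical membrane, while the collectins SP-A and SP-D bind microbes in the alveolar lining. NKX2-1, a homeodomain transcription factor, binds the promoters of several surfactant genes at sites with the core letters CAAG.

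Values are log2 expression from Robust Multi-Array Analysis (RMA) of Affymetrix Mouse Gene 1.0 ST arrays, 1 array for each line. Array medians ran from 5.10 to 5.14 in Nkx2-1-shRNA lines and from 5.18 to 5.21 in control lines. Olfactory, taste and vomeronasal receptor genes, taken as silent in these cells, set the background: 95% of their 1243 transcript clusters lay below 4.35, and a level under this limit was counted as not above background. Genes were called at a limma adjusted p under 0.05 over all 35557 transcript clusters. Exact two-sided permutation tests over these 6 lines cannot give a p under 0.1, the value they gave for each gene whose groups did not overlap. Nkx2-1 itself stood at 7.91, 7.98 and 7.83 in Nkx2-1-shRNA lines, against 8.61, 8.61 and 8.59 in control lines. It was thus present at 61.8% of the control level (95% confidence interval 54.5% to 70.0%, adjusted p = 0.00155). Since the arrays read bulk RNA of each line, fewer cells with a transcript and less of it in each cell cannot be told apart.

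Promoter sequences stood in the reference for 7 of the 10 genes, as the 250 bases before the transcription start (RefSeq, GRCm38.p6). Sftpa1, Sftpb, Abca3, Muc1 and Lpcat1 are shown because they are above background and together span windows with many, few and no NKX2-1 core letters. Each is written 5′ to 3′ on the strand of the gene, with CAAG or its reverse complement CTTG in capitals.
Sftpa1 (chr14:41131538-41131787, plus strand): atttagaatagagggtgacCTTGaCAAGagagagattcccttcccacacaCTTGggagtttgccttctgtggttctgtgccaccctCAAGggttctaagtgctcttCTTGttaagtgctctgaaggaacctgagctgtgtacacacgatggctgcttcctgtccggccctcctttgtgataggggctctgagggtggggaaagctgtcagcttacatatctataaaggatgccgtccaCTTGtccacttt
Sftpb (chr6:72304360-72304609, plus strand): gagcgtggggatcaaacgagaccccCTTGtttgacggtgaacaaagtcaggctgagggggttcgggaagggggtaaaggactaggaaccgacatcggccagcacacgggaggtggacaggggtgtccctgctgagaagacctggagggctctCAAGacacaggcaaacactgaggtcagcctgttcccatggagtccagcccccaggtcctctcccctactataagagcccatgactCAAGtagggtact
Abca3 (chr17:24351773-24352022, plus strand): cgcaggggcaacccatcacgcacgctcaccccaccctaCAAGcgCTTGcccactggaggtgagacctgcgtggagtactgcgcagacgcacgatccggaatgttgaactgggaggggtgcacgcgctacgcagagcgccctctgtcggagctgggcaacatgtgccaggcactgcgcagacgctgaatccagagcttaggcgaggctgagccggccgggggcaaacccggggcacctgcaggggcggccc
Muc1 (chr3:89228806-89229055, plus strand): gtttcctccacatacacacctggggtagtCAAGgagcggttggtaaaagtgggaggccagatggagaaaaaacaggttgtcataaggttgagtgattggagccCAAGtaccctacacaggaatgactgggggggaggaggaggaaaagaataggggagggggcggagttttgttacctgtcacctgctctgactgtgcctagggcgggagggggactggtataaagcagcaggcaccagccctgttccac
Lpcat1 (chr13:73466981-73467230, plus strand): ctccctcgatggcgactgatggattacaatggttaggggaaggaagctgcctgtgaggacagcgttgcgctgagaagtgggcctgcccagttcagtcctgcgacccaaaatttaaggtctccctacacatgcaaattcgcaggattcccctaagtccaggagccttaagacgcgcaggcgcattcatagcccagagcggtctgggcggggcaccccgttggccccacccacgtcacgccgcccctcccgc

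On both strands together the Sftpa1 window held 6 cores, a number reached or passed by 2.90% of 32851 mouse promoter windows of the same length. The Sftpb window held 3, as 37.0% of windows or more did, and those of Abca3 and Muc1 held 2 each, a number that 62.3% of windows reached. Lamp3, not printed, held 1 core (86.6% of windows had at least 1), and Lpcat1 and Slc34a2 held none. The longer forms CAAGTG and CTCAAG both contain the core. CAAGTG stood 2 times in the Sftpa1 window and in no other of the 7 (11.6% of all windows had it), and CTCAAG stood 2 times in Sftpb and 1 time in Sftpa1 (13.3% of all windows). TTGGC, the short site of the NFI family, was found in Lpcat1 and Lamp3 (41.5% of all windows), where in Lamp3 it overlapped the core, and the forkhead letters TGTTTAC were found in Lamp3 alone (3.17% of all windows). TATAAA lay 30 bases before the start in Sftpa1 and 31 in Muc1. Anywhere in the window, on either strand, it stood in 12.4% of all windows. Near this position and on the strand of the gene it stood in 1.87% of windows of plus-strand genes. Such matches describe letters and not binding.

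Of the 10 genes 5 fell in Nkx2-1-shRNA lines (Sftpc, Lpcat1, Muc1, Sftpa1 and Abca3), 2 rose (Napsa and Sftpd) and 3 were not called (Sftpb, Lamp3 and Slc34a2). Over all transcript clusters 9.24% were called lower and 7.61% higher, and over the 13563 genes above background in at least 1 group 13.9% and 15.3%. Of the 10 genes 8 were above background in at least 1 group. The groups did not overlap for these 8 genes, 5 lower and 3 higher, where 26.4% of genes above background were without overlap and lower and 26.1% without overlap and higher. The median log2 fold change of all 10 was -0.28, against -0.03 over all transcript clusters. The study's own threshold was stricter, asking for a log2 fold change beyond 0.6 and for an adjusted p under 0.0005. In the limma fit, which is not the study's own test, only Sftpc of the 10 passed, as did 1.26% of all transcript clusters.

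**Figure D1:**
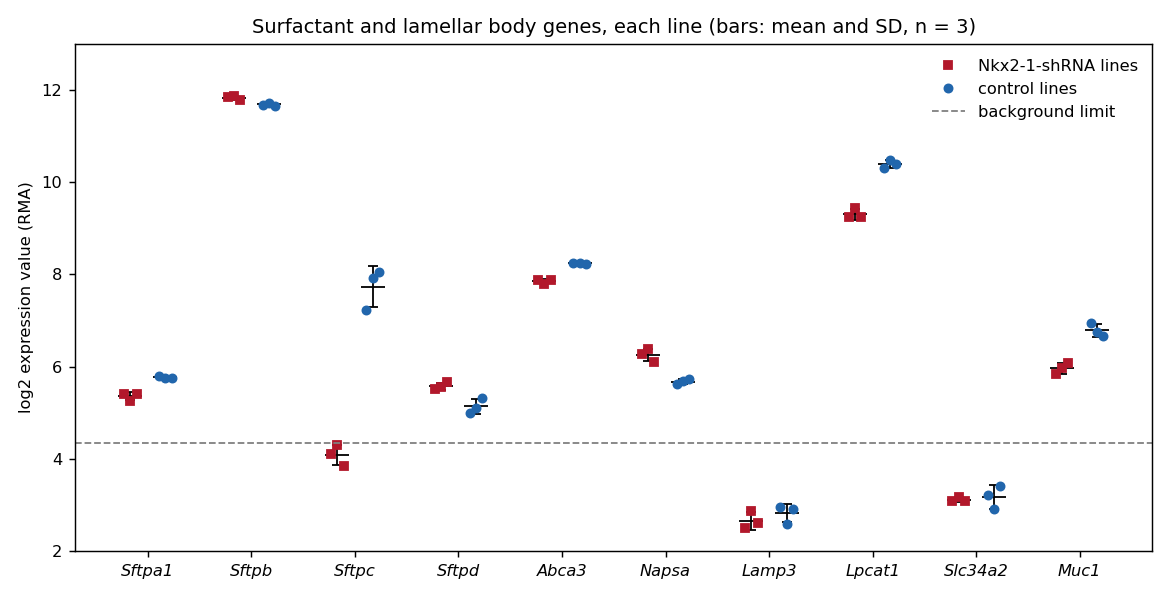
Log2 expression (RMA, vertical axis) of the 10 genes in each line, with Nkx2-1-shRNA lines as squares on the left and control lines as circles on the right of each gene; black bars are the mean and SD of 3 lines and a dashed line marks the limit for background, 4.35. Sftpc lay below the limit in the 3 Nkx2-1-shRNA lines and above it in the 3 control lines, while Lamp3 and Slc34a2 lay below it in all 6.

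The genes of the 4 surfactant proteins differed in their calls, with 2 lower, 1 higher and 1 not called. Sftpc encodes SP-C, a short hydrophobic peptide of the type II cell. Its level was 4.10, 4.29 and 3.85 in Nkx2-1-shRNA lines, against 7.22, 7.92 and 8.05 in control lines. All Nkx2-1-shRNA lines were under the background limit and all control lines far above it, with a gap of 2.92 log2 units between the nearest lines. The fitted log2 fold change was -3.65 ± 0.23 (SE, adjusted p = 0.000195), and with the dim lines set to the background limit Sftpc was at least 10.4-fold lower. Sftpc also varied more between control lines than nearly all genes above background. Its SD over control lines, 0.45, was at percentile 99.6 of the genes above background, with the first control line below the other 2. Its SD over Nkx2-1-shRNA lines, 0.22, was at percentile 96.2, but there all its values lay below the background limit.

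Sftpb encodes SP-B, the hydrophobic protein without which lamellar bodies do not form properly. It stood at 11.85, 11.87 and 11.78 in Nkx2-1-shRNA lines, against 11.68, 11.73 and 11.66 in control lines. The knock-down lines were all slightly higher, by 0.06 between the nearest lines, but the log2 fold change of 0.14 was not called (95% confidence interval -0.03 to 0.32, adjusted p = 0.249).

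The collectins went in opposite directions. Sftpa1, the gene of SP-A, measured 5.41, 5.26 and 5.41 in Nkx2-1-shRNA lines, against 5.79, 5.76 and 5.75 in control lines. The groups did not overlap, and Sftpa1 fell to 75.3% of the control level (log2 fold change -0.41 ± 0.08, SE, adjusted p = 0.0144). Sftpd, the gene of SP-D, measured 5.51, 5.55 and 5.66 in Nkx2-1-shRNA lines, against 4.98, 5.11 and 5.32 in control lines. It was higher in every Nkx2-1-shRNA line and rose 1.35-fold (log2 fold change 0.44 ± 0.11, SE, adjusted p = 0.0349). This call did not hold when any line but the third control line was left out (adjusted p 0.0798 to 0.109, and 0.0198 without the third control line), nor in the methods' test (adjusted p = 0.0919).

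Differences between the changes of the surfactant proteins were computed within each line. For 5 of the 6 pairs the within-line differences did not overlap between groups, each with the smallest exact permutation p of 0.1 (0.12 after Benjamini-Hochberg adjustment over the 6 pairs). The change of Sftpa1 minus that of Sftpd was -0.84 log2 units, and minus that of Sftpb -0.55. Sftpb and Sftpd could not be separated, with overlapping differences (exact permutation p = 0.2, and 0.2 adjusted). For pairs with Sftpc only a bound can be given, since it was below background in Nkx2-1-shRNA lines. With those lines set to the background limit, the change of Sftpa1 was at least 2.97 log2 units above that of Sftpc and that of Sftpb at least 3.53, while Sftpc minus Sftpd was -3.82 or lower.

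**Figure D2:**
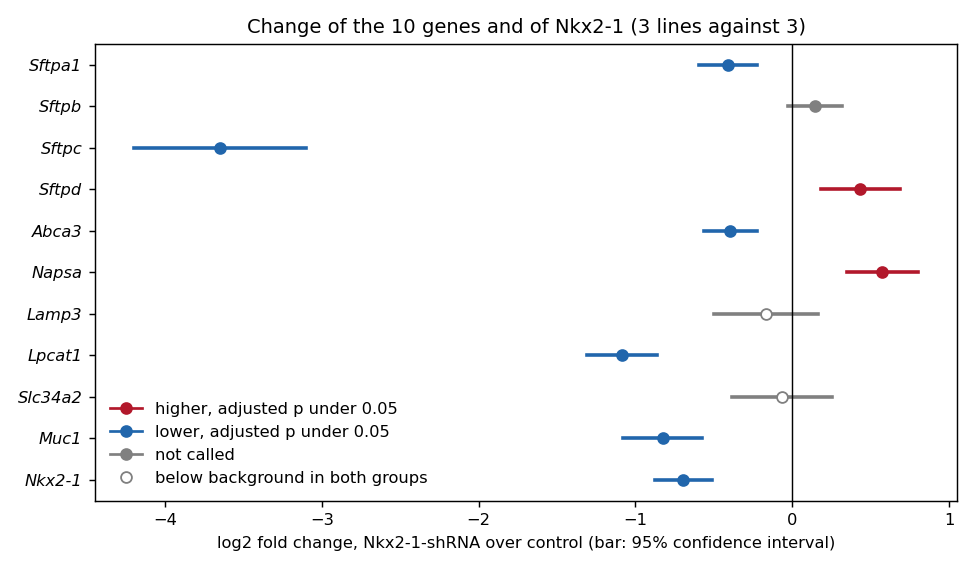
Log2 fold change (horizontal axis, Nkx2-1-shRNA over control) with its 95% confidence interval for the 10 genes and Nkx2-1, 3 lines against 3; blue is lower and red higher at an adjusted p under 0.05, grey is not called, and open circles are genes below background in both groups. Sftpc at -3.65 stands apart from the other genes, which run from -1.09 for Lpcat1 to 0.58 for Napsa.

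Among genes of the lamellar body, Abca3 encodes the transporter that carries phospholipid into the organelle. It measured 7.87, 7.80 and 7.89 in Nkx2-1-shRNA lines, against 8.25, 8.25 and 8.23 in control lines. The groups did not overlap, with an SD of 0.01 among control lines, and Abca3 fell to 76.0% of the control level (log2 fold change -0.40 ± 0.07, SE, adjusted p = 0.0116).

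Napsa encodes napsin A, an aspartic protease that trims the SP-B precursor. It measured 6.28, 6.37 and 6.10 in Nkx2-1-shRNA lines, against 5.61, 5.68 and 5.74 in control lines. Every Nkx2-1-shRNA line was above every control line, and Napsa rose 1.49-fold (log2 fold change 0.58 ± 0.10, SE, adjusted p = 0.00850). Lamp3, which encodes a glycoprotein of the lamellar body membrane (DC-LAMP), measured 2.49, 2.86 and 2.60 in Nkx2-1-shRNA lines, against 2.96, 2.59 and 2.91 in control lines. Lamp3 was below background in all 6 lines and the groups overlapped (adjusted p = 0.502), so that no fold is given.

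Lpcat1 encodes the acyltransferase that remodels phosphatidylcholine to the dipalmitoyl form of surfactant. It measured 9.24, 9.44 and 9.24 in Nkx2-1-shRNA lines, against 10.30, 10.47 and 10.40 in control lines. The groups were 0.86 log2 units apart at their nearest, and Lpcat1 fell to 47.1% of the control level (log2 fold change -1.09 ± 0.09, SE, adjusted p = 0.000632). Slc34a2, the sodium-phosphate cotransporter of the type II cell that takes up phosphate released from surfactant phospholipid, measured 3.08, 3.17 and 3.09 in Nkx2-1-shRNA lines, against 3.21, 2.90 and 3.42 in control lines. It was below background in all 6 lines and the groups overlapped (adjusted p = 0.814).

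Muc1 encodes a membrane mucin of the apical surface. It measured 5.84, 5.96 and 6.08 in Nkx2-1-shRNA lines, against 6.94, 6.76 and 6.66 in control lines. The groups did not overlap, and Muc1 fell to 56.4% of the control level (log2 fold change -0.83 ± 0.11, SE, adjusted p = 0.00294).

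The relatives of these genes by protein family were read as well, on lists put together after the other values had been seen. Over all genes above background 13.9% were called lower and 15.3% higher. The small counts of the families, here and in the next paragraph, were not tested against these shares. Of 4 lysophosphatidylcholine acyltransferases Lpcat1 alone was called, while Lpcat3 (-0.09 log2, adjusted p = 0.632) and Lpcat4 (0.13, adjusted p = 0.381) were not and Lpcat2 was below background. Of 16 A-class ABC transporters Abca3 alone was called, and 11 were below background. The widely expressed phosphate transporters Slc20a1 and Slc20a2 rose, while Slc34a2 and its relatives Slc34a1 and Slc34a3 were not called. Slc20a1 measured 10.41, 10.37 and 10.34 in Nkx2-1-shRNA lines, against 9.12, 9.11 and 9.07 in control lines (log2 fold change 1.27 ± 0.07, SE, adjusted p = 0.000126), and Slc20a2 averaged 9.84 ± 0.02 in Nkx2-1-shRNA lines and 9.23 ± 0.11 in control lines (SD, n = 3 each, limma adjusted p = 0.00394).

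Among 6 aspartic proteases measured, Ctse (cathepsin E) rose by 3.53 log2 units (adjusted p = 4.21e-05), or by 3.37 with the 2 control lines below background set to the limit, Bace2 fell by 1.93 (adjusted p = 0.000422) and Bace1 fell by 0.43 (adjusted p = 0.0176). Ctsd (cathepsin D) was not called (0.09, adjusted p = 0.558). Lamp1, a general lysosomal membrane protein, fell by 0.32 log2 units (adjusted p = 0.0424), and Lamp2 was not called. Of 6 membrane mucins Muc1 fell, Muc4 rose by 0.48 log2 units (adjusted p = 0.0121) and the other 4 were below background.

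The position of the genes on their chromosomes was compared with the changes of their neighbours, as the 10 nearest genes above background on each side in the RefSeq order. For the counts of neighbours, the shares over all genes above background were 13.9% lower and 15.3% higher. Sftpa1 and Sftpd lie near each other on chromosome 14, with the collectin gene Mbl1 between them among the measured genes. Around Sftpa1 the median neighbour had a log2 fold change of 0.28, with 9 neighbours higher and 0 lower, and Sftpa1 was the lowest of the 21 genes. Sftpc, on another stretch of chromosome 14, was also the lowest of 21 genes in a neighbourhood with a median of 0.12. Its measured neighbours there were Bmp1, which cleaves procollagens and fell by 0.37 log2 units (adjusted p = 0.0158), and Lgi3, which rose by 1.23. Sftpc and Lgi3, which is also listed as a type II marker, thus lie next to each other among the measured genes and went in opposite directions.

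**Figure D3:**
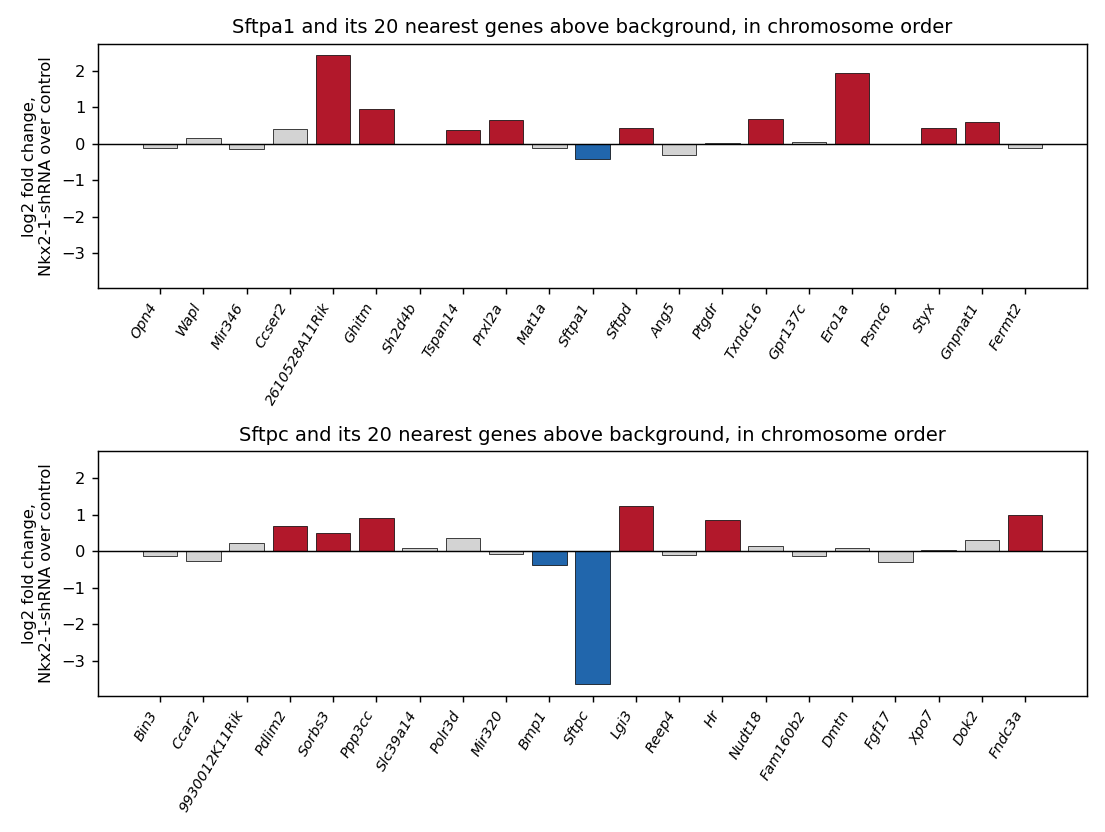
Log2 fold change (vertical axis, Nkx2-1-shRNA over control) of Sftpa1 (top) and Sftpc (bottom) and of their 20 nearest genes above background, in the order of the chromosome; red is higher and blue lower at an adjusted p under 0.05, grey is not called. Both genes are the lowest of their 21, beside neighbours such as Sftpd and Lgi3 that are higher.

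Muc1 was likewise the lowest of 21 genes on its stretch of chromosome 3 (neighbour median -0.11), Lpcat1 the second lowest on chromosome 13 (-0.01), and Napsa the highest on chromosome 7 (0.05, with 1 of 20 neighbours called). Abca3 ranked 3 of 21 from the lowest (0.02), Sftpb 13 of 21 (0.11) and Sftpd 15 of 21 (0.17, with 8 neighbours higher and 1 lower). Slc34a2, below background, lay among 12 neighbours that rose and 2 that fell, with a median of 0.54. These ranks and the counts of neighbours are descriptions and were not tested.

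Genes that supply surfactant lipid, from a list chosen with earlier results of these data known, fell in part. Of 15 measured, 5 were lower, 1 higher and 9 not called, with a median of -0.13. For this list and the gene and marker lists below, the shares over all genes above background were 13.9% lower and 15.3% higher. Cd36, a fatty acid transporter, measured 4.38, 4.07 and 4.31 in Nkx2-1-shRNA lines, against 7.12, 6.87 and 6.52 in control lines (log2 fold change -2.58, adjusted p = 0.000221), or -2.48 with the 2 Nkx2-1-shRNA lines below background set to the limit. Lpin1, which makes diacylglycerol, fell by 0.67 log2 units (adjusted p = 0.00996), Acly, which supplies acetyl-CoA for fatty acids, by 0.63 (adjusted p = 0.00341), Fasn, the fatty acid synthase, by 0.45 (adjusted p = 0.00668) and Chka, the choline kinase, by 0.29 (adjusted p = 0.0447). Cept1, which joins choline or ethanolamine phosphate to diacylglycerol, was the gene that rose, by 0.99 log2 units (adjusted p = 0.00268), while Pcyt1a, the rate-limiting step of phosphatidylcholine synthesis, differed by -0.01 (adjusted p = 0.975).

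Of 8 measured genes that process and check the surfactant proproteins 1 was called, the chaperone Dnajb9, which rose by 0.48 log2 units (adjusted p = 0.00970). Ctsh, a cathepsin that cuts the SP-B and SP-C precursors, differed by -0.31 log2 units (adjusted p = 0.207). Of 17 measured genes of lamellar body biogenesis and secretion 2 fell and 2 rose, with a median of 0.04. These counts lie near the shares of all genes above background called lower (13.9%) and higher (15.3%). Rab27a, a small GTPase of secretory lysosomes, measured 6.51, 6.53 and 6.45 in Nkx2-1-shRNA lines, against 7.61, 7.70 and 7.59 in control lines (log2 fold change -1.14, adjusted p = 0.000243). Ap3b1, a subunit of the adaptor AP-3 that sorts cargo to lysosome-related organelles, fell by 0.45 log2 units (adjusted p = 0.0183). Vamp8, a SNARE of regulated secretion, rose by 1.25 (adjusted p = 0.0148) and P2rx4, an ATP-gated channel of lamellar bodies, by 0.62 (adjusted p = 0.0117), though neither call held in the methods' test (adjusted p = 0.0887 for Vamp8 and 0.0531 for P2rx4). Hps1, a gene of Hermansky-Pudlak syndrome, differed by 0.24 (adjusted p = 0.152). None of the 5 other collectin genes was called, and 3 of them were below background, Mbl1 (adjusted p = 0.520) included.

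**Figure D4:**
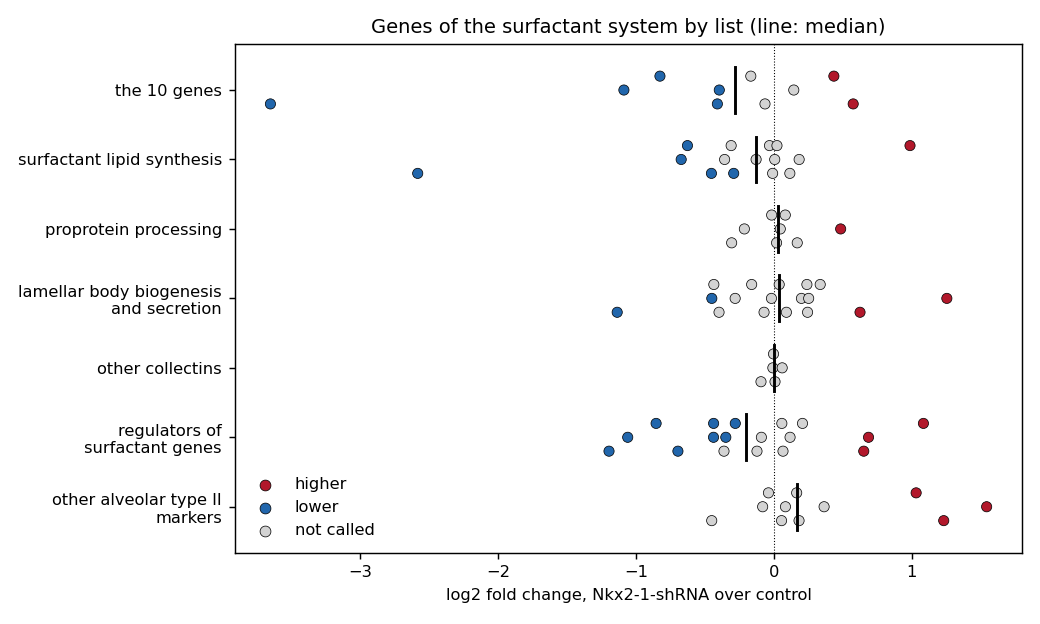
Log2 fold change (horizontal axis, Nkx2-1-shRNA over control) of the 10 genes and of the genes of 6 lists of the surfactant system; each point is a gene (blue lower, red higher, grey not called) and the black line is the median of the list. The medians run from -0.28 for the 10 genes to 0.17 for other alveolar type II markers.

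Of 18 regulators of surfactant genes, Nkx2-1 included, 8 fell, 3 rose and 7 were not called (median -0.20). Nkx2-1, the target of the shRNA, is among the 8, so that its fall was set by the design. Nfib and Nfix, of the nuclear factor I family, fell by 1.19 log2 units (adjusted p = 0.000508) and by 1.06 (adjusted p = 0.00045). The forkhead factors Foxa1 and Foxa2 fell by 0.85 (adjusted p = 0.00434) and by 0.44 (adjusted p = 0.0375), and Cebpa by 0.44 (adjusted p = 0.0375). The calls of Foxa2, Cebpa, Ncoa1 and Rara did not hold with single lines left out (adjusted p up to 0.110, 0.123, 0.0914 and 0.128), when 4 to 6 of the 18 regulators were called lower, nor with median centring or the replicate block. Pparg, a nuclear receptor of lipid metabolism, rose by 1.08 (adjusted p = 0.00071), Klf5 by 0.69 (adjusted p = 0.00375) and Wwtr1, which encodes the coactivator TAZ, by 0.65 (adjusted p = 0.00584).

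The lung epithelial label of the line was set against markers that the 10 genes do not hold. Cdh1, the epithelial cadherin, averaged 10.99 ± 0.06 in Nkx2-1-shRNA lines and 11.02 ± 0.02 in control lines (SD, n = 3 each), and 5 of the 6 epithelial markers were above background. Of 11 other alveolar type II markers 6 were above background, and Lyz1, Lyz2 and Retnla were below it in both groups, as were Lamp3 and Slc34a2. None of the 11 fell, and 3 rose. Lgi3 measured 6.66, 6.78 and 6.62 in Nkx2-1-shRNA lines, against 5.36, 5.60 and 5.41 in control lines (log2 fold change 1.23, adjusted p = 0.000427). Cd74, the invariant chain, rose by 1.54 log2 units, or by 1.32 with the 2 control lines below background set to the limit (adjusted p = 0.00268), and Il33, an alarmin, was at least 1.82-fold higher, since all control lines were below background (adjusted p = 0.00155). Lyz1 was not called (adjusted p = 0.258).

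Markers of alveolar type I cells went in both directions. Of 10, 5 rose (Cav1 by 2.11 log2 units, or by 2.03 with 1 control line below background set to the limit, Clic5 by 1.50, Vegfa by 1.27, Ager by 0.82 and Emp2 by 0.66) and Akap5 fell by 0.81, and their summed log2 levels ran from 74.0 to 74.5 in Nkx2-1-shRNA lines, against 68.2 to 70.1 in control lines. Aqp5, Hopx, Pdpn and Rtkn2, also type I markers, were not called. Of 8 airway secretory markers Bpifa1 fell by 5.23 log2 units and Muc5b rose by 2.13, while the other 6 were not called. On average 4 of the 8 were below background in both groups, Scgb1a1, the club cell secretoglobin, among them. The summed levels of the 8, 35.0 to 35.6 in Nkx2-1-shRNA lines and 38.5 to 39.1 in control lines, thus rest largely on Bpifa1 and Muc5b. The part of these type I and airway markers in the changes of the surfactant genes was not tested.

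The 5 ciliated cell markers measured, Foxj1 included, were on average below background in both groups. Of 6 leukocyte markers 2 were above it in at least 1 group (Cd68 and Cd3e) and Ptprc was not, of 6 endothelial markers 2 were (Tek and Tie1) and Pecam1 was not, and of 7 fibroblast and smooth muscle markers 6 were. No fibroblast and smooth muscle marker, with Col1a1 at 0.09 log2 (adjusted p = 0.607), and no leukocyte marker was called. The endothelial marker Tek was at least 2.68-fold lower (adjusted p = 0.00041) and of 6 epithelial markers Cldn4 rose by 1.74 log2 units (adjusted p = 0.000611) and Krt18 by 0.44 (adjusted p = 0.00825).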

How the data were processed

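RNA of 3 Nkx2-1-shRNA and 3 control MLE15 lines was measured with 1 Affymetrix Mouse Gene 1.0 ST array per line. From the scanned images the authors computed deposited log2 values in Affymetrix Expression Console 1.1, by the RMA steps of background correction, quantile normalization and probe summary. The values of 35557 transcript clusters were taken without change. Quantile normalization of probes can remove part of a shift shared by most genes; medians of the summarized values still differed between groups, and median centring moved fold changes by 0.0804 log2 units. Log2 differences of dim genes are compressed, and where lines lay below the background limit a bound or a value with those lines set to the limit is given.

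A gene was a transcript cluster with a single symbol in the platform annotation; with several, the one with the highest mean was taken, and each of the 10 genes had 1. The members, gene lists and motifs were chosen with earlier results of these data known. Of each list, the first gene and up to 4 called genes with the largest change were named; others, and all genes of the protein families, were named after their values were seen. Prdx6, Vamp2, Chi3l1, Dnai1 and Ren1 were not analysed here.

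Groups were compared with limma 3.58.1 in R 4.3.3 (lmFit, eBayes, no block), with Benjamini-Hochberg adjustment over all transcript clusters. The fit was run on simulated data with independent normal noise and added shifts. Such a run checks the code and cannot show how many calls on the 6 arrays are false. Motifs were counted on both strands of the 250 bases before the start. Alternatives were array weights, a robust prior with a trend, the 2-sample test of the methods and its form for unequal variances, median centring, a second quantile normalization, 3 filters, averaging over transcript clusters of a gene, a 90th percentile limit for background, a replicate block and each line left out. An array gives no counts, and precision rests on the 6 arrays. The microRNA arrays of the study were not analysed here.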

Additional observations from a re-analysis of the deposited data

How the results depend on the processing

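Of the 10 genes 5 were called lower under every alternative except the test for unequal variances, which called 3 (Sftpc, Lpcat1 and Muc1) and 0 higher. Nkx2-1 kept its log2 fold change of -0.69 there with an adjusted p of 0.0550. The count of genes called higher was 2, but 1 in the methods' test, which lost Sftpd, and 1 to 2 with a line left out, where Napsa was always called. At the study's threshold the 1 gene, Sftpc, became 0 in the methods' test, in the test for unequal variances and with the replicate block, 2 with a trended and robust prior, with only transcript clusters above background and with only those above the median level, and 3 with only transcript clusters of 1 gene symbol. With a line left out it was 0 to 1. The cause was not tested.

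Replicate numbers are shared between the groups, but deviations of lines with the same number correlated at only 0.06, 0.14 and -0.03 across transcript clusters, which are not independent, and not every line correlated best with its own number, so that the numbers were not taken as pairs. The replicate block kept 5 genes lower and 2 higher, and lost the calls of Foxa2 (adjusted p = 0.0620), Cebpa (0.0539), Ncoa1 (0.0522), Rara (0.0935), Chka, Lamp1 and Bace1. The methods' test also lost Foxa2 (0.0988), Cebpa (0.0985), Lpin1 (0.0506) and Lamp1. Among genes of the lists that were named, Chka lost its call whichever line was left out (adjusted p up to 0.160), Ap3b1 without any of the Nkx2-1-shRNA lines (up to 0.0661), Lamp1 without any line but the first control line (up to 0.141), Bmp1 without any Nkx2-1-shRNA line or the second control line (up to 0.0663) and Bace1 without the second or the third Nkx2-1-shRNA line (up to 0.0640). Ctsh was called lower without the third control line (adjusted p = 0.0280) and Lyz1, below background, without the second (0.0399). Signal over background limits what can be said of Lamp3 and Slc34a2, which were below it in all lines, and of the size of the fall of Sftpc, for which a bound stands beside the fitted value. With 3 lines in each group, no exact test could pass 0.05.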

Other observations

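The control lines also differed among themselves in these genes. The first control line was the lowest of the 3 for Sftpc (a deviation from the group mean of -0.51 log2 units), for Sftpd (-0.15), for Lpcat1 (-0.09) and for Napsa (-0.06), and it was the highest for Muc1 (0.15). Sftpa1, Sftpb and Abca3 stayed within 0.04 log2 units of the group mean in every control line. Among Nkx2-1-shRNA lines the second line was the highest for Sftpc (0.21), Napsa (0.12) and Lpcat1 (0.13). The third was the lowest for Sftpc (-0.23) and Napsa (-0.15), and Sftpc lay below background in all Nkx2-1-shRNA lines. These are values of single lines and were not tested.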
